A study of Mus musculus with 120 samples.

Results

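Cells whose IL-5 secretion had just begun were compared by whether they also held Il13 transcript. The cells were single mouse group 2 innate lymphoid cells (mILC2s) recovered 30, 60 or 90 min after the onset of IL-5 secretion, the transition state of the IL-5 index. Of 33 such cells among the 120 single-cell libraries of the series, 2 (30 min replicate 10 and 60 min replicate 8) held fewer than 10000 gene reads and were left out, and 31 were used. A cell was called Il13-high when Il13 reached 100 CPM (reads of a gene scaled to a common total of gene reads) and Il13-low when it did not. The rule gave 26 Il13-high cells and 5 Il13-low cells. The classes were chosen by the measured Il13 CPM, so the values of Il13 itself are a description.

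By the study's protocol, the cells came from mouse fat tissue, as pooled mesentery of 20 wildtype C57BL/6 mice, and ILC2s were usually taken from retired female breeders. Whether all cells here came from 1 such pool is not stated. They were taken as lineage-negative c-Kit+Sca-1+ cells and kept in culture with IL-2 for several months. They were then stimulated with IL-2 and IL-33 while secretion was followed by live-cell imaging. No label ties a cell to an animal or a culture, so each class stands as 1 sample. No test between classes was therefore possible, no p-value is given, and the counting intervals printed cover counting error alone. PCR reads without molecular identifiers are not independent molecules. Without such a test, "higher" and "lower" describe these cells only.

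ILC2s are tissue-resident lymphocytes that lack antigen receptors and answer the alarmin IL-33 with type 2 cytokines. IL-5 supports eosinophils, whereas IL-13 acts on epithelium, smooth muscle and goblet cells, and IL-4 acts on B cells and T cells and also on ILC2s themselves. Il4, Il13 and Il5 lie near one another in the type 2 cytokine locus, with Rad50 between Il13 and Il5. In T cells this locus carries shared control elements, and GATA3, NFAT and AP-1 are among the factors known to act there.

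In the mouse build GRCm38, Il13 occupied chromosome 11 from 53631324 to 53634702 on the minus strand. Il4 lay on the same strand from 53602982 to 53618669, 12.7 kb from Il13. Il5 lay on the plus strand from 53720794 to 53725106, 86.1 kb from Il13. The promoter windows of the gene that split the cells and of its cytokine neighbours are shown because the comparison turns on these 3 genes. Each window runs from 250 bases before to 50 bases after the RefSeq start (GRCm38.p6) and is printed 5′ to 3′ on the gene's strand. Capitals mark the letters GGAAA (the NFAT core) or GATAA (the GATA core) on either strand. The Il13 window is chr11:53634653-53634952, minus strand.
Il13: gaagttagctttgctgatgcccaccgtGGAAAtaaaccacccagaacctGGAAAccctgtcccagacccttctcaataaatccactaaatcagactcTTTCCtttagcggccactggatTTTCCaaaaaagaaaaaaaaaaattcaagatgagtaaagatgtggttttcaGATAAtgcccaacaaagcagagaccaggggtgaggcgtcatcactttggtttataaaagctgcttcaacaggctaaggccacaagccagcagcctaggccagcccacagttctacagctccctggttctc
The Il4 window is chr11:53618616-53618915, minus strand, and a further RefSeq window of Il4 is not printed.
Il4: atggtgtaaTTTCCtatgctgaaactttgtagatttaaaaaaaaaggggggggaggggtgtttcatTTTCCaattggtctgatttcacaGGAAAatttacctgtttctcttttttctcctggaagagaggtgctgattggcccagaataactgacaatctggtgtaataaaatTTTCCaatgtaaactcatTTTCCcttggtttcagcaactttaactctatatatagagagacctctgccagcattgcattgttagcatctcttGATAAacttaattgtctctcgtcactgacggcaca
The Il5 window is chr11:53720544-53720843, plus strand.
Il5: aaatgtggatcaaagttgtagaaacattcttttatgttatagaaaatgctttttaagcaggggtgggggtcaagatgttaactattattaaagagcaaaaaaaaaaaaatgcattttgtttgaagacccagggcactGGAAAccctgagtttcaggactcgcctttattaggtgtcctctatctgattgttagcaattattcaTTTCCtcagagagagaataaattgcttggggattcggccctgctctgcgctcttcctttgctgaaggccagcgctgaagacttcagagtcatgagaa

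The Il13 window held 4 matches to the NFAT core and 1 to the GATA core. In the printed Il4 window there were 5 and 1, and in the Il5 window 2 and 0. None of these windows held TGANTCA (AP-1) or the NF-kB consensus. Among 32851 RefSeq promoter windows of the same length, 61.3% held the NFAT core, 25.4% the GATA core, 7.81% the AP-1 letters and 1.20% the NF-kB consensus. A match is a description of letters and not of a bound site.

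Il13 spanned the whole range from no read to 6480 CPM at the onset of IL-5 secretion. The 5 Il13-low cells stood at 0, 0, 4.55, 15.5 and 67.7 CPM, which rested on 0, 0, 1, 5 and 9 reads. The 26 Il13-high cells ran from 154 CPM through a median of 1144 to 6480 CPM. The cell nearest below the limit was 90 min replicate 1 at 67.7 CPM, and the nearest above were 30 min replicate 9 at 154 CPM and 30 min replicate 1 at 171 CPM. A count of 0 allows up to 3 reads. Libraries were pooled in sets of 5 or 6 before tagmentation, and the libraries that shared time and title date with an Il13-low cell carried between 876 and 2482 Il13 reads together. The part of such shared handling in the few reads of the low cells was not tested.

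**Figure D1:**
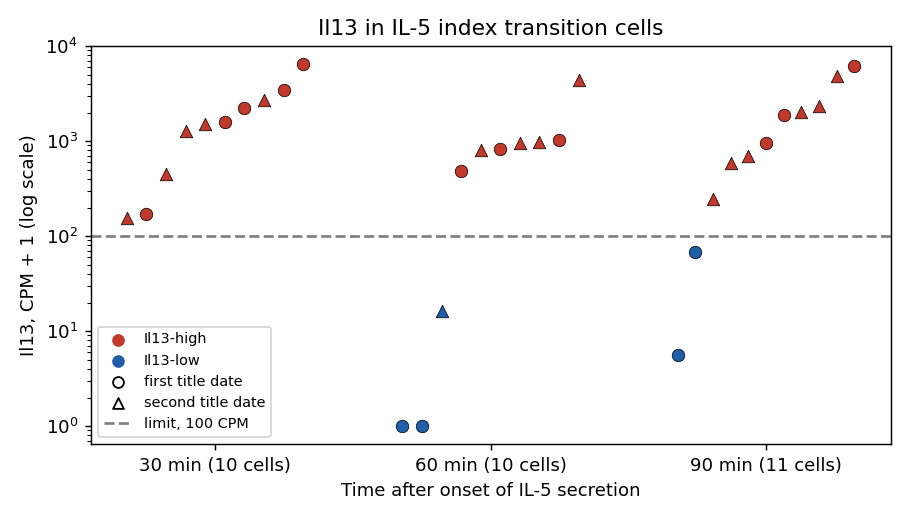
Il13 per cell, as CPM + 1 on a log scale, by time after the onset of IL-5 secretion. Red points are Il13-high and blue points Il13-low cells, circles and triangles are the first and second date in the sample titles, and the dashed line is the 100 CPM limit. All 10 cells at 30 min lie above the line, and the 5 cells below it are at 60 and 90 min.

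The classes were not balanced over time or date. At 30 min, 10 cells were Il13-high and none Il13-low, against 7 and 3 at 60 min and 9 and 2 at 90 min. Of the 5 Il13-low cells, 4 carried the first title date and 1 the second, against 11 and 15 of the Il13-high cells. Time and class thus cannot be told apart for the 30 min cells, and the comparison within the 60 and 90 min cells (16 Il13-high against the same 5 Il13-low) is given in the text or in the plot of named genes. The second title date gives a value that rests on 1 Il13-low cell, 60 min replicate 11.

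Library quality overlapped between the classes, and 1 Il13-high library stood apart. Gene reads per cell had a median of 275216 (66588 to 785198) in Il13-high and 219905 (113940 to 338560) in Il13-low cells. After thinning to 100000 reads, the median number of genes with a read was 2526 in 25 Il13-high cells and 2271 in the 5 Il13-low cells. Without thinning the medians were 2748.5 and 2413. Mitochondrial reads made up a median of 1.62% and 1.87%, and reads of ribosomal protein genes 14.7% and 15.1%. The library that stood apart was 90 min replicate 11, with 66588 gene reads, 1371 genes, 14.1% mitochondrial and 2.19% ribosomal protein reads. The other 25 Il13-high cells had 122833 or more gene reads, at most 3.60% mitochondrial and at least 8.20% ribosomal protein reads. In each of these measures the Il13-low range lay inside the Il13-high range, but for gene reads only with that library included. By the rule of the calls given below, a called gene keeps its ratio limit without this library, as without any other cell, so this is no check of the calls. With the whole rule run again without this library, 279 genes were called higher and 173 lower, where all cells gave 281 and 170.

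ILC2 markers were read in both classes, at levels that differed for some of them. Of the 14 listed none was without a read, and Il1rl1 (the IL-33 receptor chain), Il2ra, Rora and Il5 had reads in all 31 cells. Gata3, the lineage-defining factor, had reads in 25 of 26 Il13-high cells and 5 of 5 Il13-low cells. Thy1 was read in 1 of 5 Il13-low cells, and Il7r was unread in 18 of 26 Il13-high cells. Beside Il13, 10 of the markers entered the comparison described next, and 4 were called higher and 1 lower in Il13-high cells (40.0% and 10.0%, against 10.0% and 6.07% of all genes). All 8 NK and ILC1 markers and all 8 myeloid markers had 0 reads. For ILC3 markers 4 of 5 genes had none, for mast cells and basophils 5 of 7, for B cells 6 of 7 and for fat and stroma 6 of 7. The T cell list was partly present, with Trbc2 read in 20 and 5 cells and Cd3g in 8 and 2, while Cd3e had 1 read in 1 Il13-high cell. Summed T cell markers ran from 0 to 4301 CPM in Il13-high and from 236 to 3467 CPM in Il13-low cells. The summed mast cell and basophil markers reached 2151 CPM in 1 Il13-high cell, 90 min replicate 6, against at most 8.78 CPM in Il13-low cells. Fat and stroma markers summed to at most 807 and 483 CPM, and B cell markers to at most 334 and 464 CPM. Their part in the results was not tested.

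For each gene, the reads of a class were summed and scaled to CPM, and the log2 ratio of Il13-high over Il13-low was taken, with 3 reads over a class as the floor. A gene entered when the mean of the class CPMs was at least 50. It was called higher or lower when the ratio was at least 1 on the log2 scale in that direction with all cells, on leaving out any 1 cell, and had the same sign within each title date. Of 2799 genes that entered, 281 were called higher in Il13-high cells (10.0%) and 170 lower (6.07%). Within the 60 and 90 min cells, 284 of 2814 genes were called higher (10.1%) and 199 lower (7.07%). Of the 281 genes, 201 were also called there, and of the 170 genes, 135. These comparisons share the 5 Il13-low cells and 16 of the 26 Il13-high cells, so the second lies within the first and is not independent of it. Il13, whose values chose the classes, is counted among the 281, the 284 and the 201. The median log2 ratio of all entered genes was -0.20, and TMM scaling moved it to 0.00, so ratios may be read against a shift of that size.

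Most calls rested on genes that only some cells held. Of the 281 genes called higher, 93 had a read in at least 70% of the Il13-high cells, and 35 had no read in the Il13-low class. Of the 170 called lower, 54 had a read in at least 70% of the Il13-low cells, and 15 had no read in the Il13-high class. Of 200 genes read in all 31 cells, 4 were called higher and 0 lower. Those 4, named after their values were seen, were Il5, Il9, the translocon subunit gene Sec61g and the actin gene Actg1. Apart from Il13, no gene separated the classes without overlap, so that 1 gene of 2799 (0.0357%) did so, and it was the one that defined them.

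Il5, whose secretion chose the cells, was lower in the Il13-low cells. They held 272, 464, 666, 1303 and 2864 CPM of Il5. The Il13-high cells ran from 45.1 CPM (90 min replicate 11) through a median of 3815 to 13310 CPM (90 min replicate 6). Thus 15 of 26 Il13-high cells lay above every Il13-low cell, and the ranges overlapped. The class sums were 4033 and 1037 CPM, a log2 ratio of 1.96 (counting interval 1.88 to 2.05), and leaving out any 1 cell gave 1.77 to 2.35. The ratio was 1.80 within the first title date and 2.57 within the second. In the 60 and 90 min cells it was 1.77, with 1.73 at 60 min alone and 1.76 at 90 min alone. Over the 31 cells Il5 and Il13, as log2(CPM + 1), had Spearman's rho of 0.57 and Pearson's r of 0.46, and within the 26 Il13-high cells 0.44 and 0.38. The rho of the other genes with Il13, over all cells and then within the Il13-high cells, was 0.41 and 0.41 for Csf2, 0.25 and 0.27 for Il6, 0.16 and -0.01 for Il9, 0.11 and -0.09 for Gata3, and -0.28 and -0.15 for Il4. These points share library pools and depth, and the correlations are descriptions.

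Il4 went the other way in the class sums, but not at every time. The Il13-low cells held 0, 184, 209, 393 and 517 CPM of Il4, and 4 of 5 had a read. Among the Il13-high cells 10 of 26 had no Il4 read, the median was 58.0 CPM and the highest 514 CPM. Only 7 of 26 Il13-high cells reached the 184 CPM of the second-lowest Il13-low cell. The sums were 101 and 327 CPM, a log2 ratio of -1.70 (counting interval -1.88 to -1.51). It lay between -1.88 and -1.28 whichever cell was left out. By title date it was -1.31 and -2.18. Restricted to the 60 and 90 min cells it was -1.34 and was no longer called.

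The times differed in sign for Il4. At 60 min the 3 Il13-low cells stood at 184, 393 and 517 CPM, and of the 7 Il13-high cells only 1 reached that range, at 224 CPM. The log2 ratio there was -2.69. At 90 min the 2 Il13-low cells stood at 0 and 209 CPM, while 5 of 9 Il13-high cells held 301 to 514 CPM and the other 4 none. The ratio there was 0.91 in the opposite direction. Of the times that held both classes, Il4 was thus lower in Il13-high cells at 60 min alone, where 3 cells make up the Il13-low side. At 30 min, where no Il13-low cell was found, the Il13-high cells had a median of 28.4 CPM of Il4 and a highest value of 232 CPM.

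**Figure D2:**
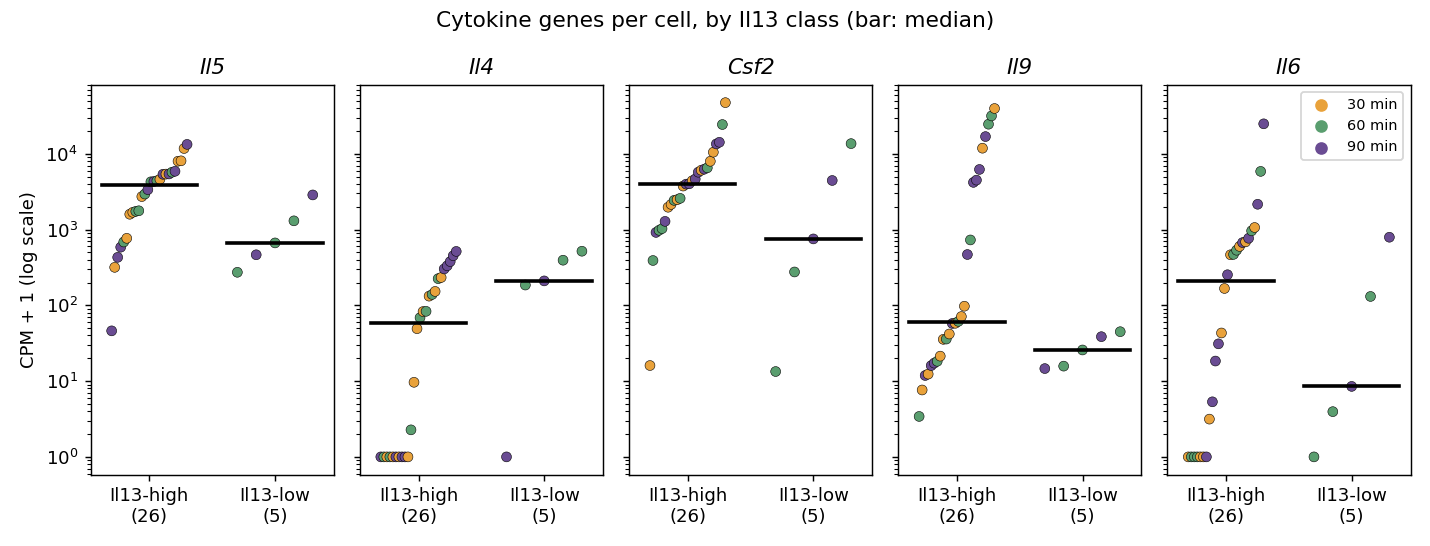
CPM + 1 on a log scale of Il5, Il4, Csf2, Il9 and Il6 in the 26 Il13-high and 5 Il13-low cells, each point a cell coloured by time and each bar a class median. The Il5 medians are 3815 and 666 CPM and the Il4 medians 58.0 and 209 CPM, and the ranges of the classes overlap for all 5 genes.

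Il9, which encodes a mast cell and ILC2 growth factor, was low in every Il13-low cell. The 5 values were 13.6, 14.8, 24.8, 37.6 and 43.9 CPM. In the Il13-high cells the median was only 58.7 CPM, with a lowest value of 2.42, but 8 of 26 cells exceeded 1000 CPM and the highest reached 39596 CPM. The log2 ratio of the sums, 7.89 (7.34 to 8.51), thus came from few cells, and 1 cell held 36.6% of the Il13-high reads of Il9. Of the 26 Il13-high cells 11 lay at or below the highest Il13-low value. The ratio was 7.91 in the 60 and 90 min cells, but 0.95 where the classes were split at 500 CPM of Il13.

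Csf2, the gene of the growth factor GM-CSF that lies farther along chromosome 11, was not called. The Il13-low cells held 12.4, 275, 752, 4443 and 13621 CPM. The Il13-high cells ran from 15.1 through 3995 to 47310 CPM. The ratio was 1.37 with all cells and 0.89 without 60 min replicate 11, the cell at 12.4 CPM. Without 60 min replicate 4, the cell at 13621 CPM, it was 2.43. The 2 Il13-low cells without any Il13 read held 13621 and 275 CPM of Csf2, so these 2 cells differed widely, as did the Il13-high cells.

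Il6 and Ccl1 were called higher with large spread. Il6 stood at 0, 2.95, 7.52, 130 and 791 CPM in Il13-low cells and at a median of 209 CPM in Il13-high cells, of which 5 lay above 791 CPM. Its ratio was 2.70. It was 1.67 without 90 min replicate 6, which held 52.3% of the Il13-high reads and had the high mast cell and basophil marker sum. Without 90 min replicate 5, which held 79.8% of the Il13-low reads, it was 4.70. The title dates gave 0.49 and 3.88. In the 60 and 90 min cells it was 3.42. Ccl1, which encodes a ligand of CCR8, had a ratio of 3.77 (3.43 in the 60 and 90 min cells) and medians of 146 and 2.95 CPM. Of its Il13-low reads 96.1% were in 60 min replicate 11, without which the ratio was 7.97. Without 60 min replicate 5 the ratio was 3.26, and the title dates gave 8.08 and 1.94. Ccl1 was the single gene of 13 listed chemokines that entered. Calca, the gene of the calcitonin gene-related peptide, had a ratio of 0.49 and was not called. Of 15 listed effector cytokines 6 entered beside Il13, 3 were called higher (Il5, Il9 and Il6) and 1 lower (Il4), against 10.0% and 6.07% of all genes. Their median ratio was 1.67 against -0.20 over all genes. In the 60 and 90 min cells the same 3 genes were called higher and none lower.

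The locus also holds genes that encode no cytokine. Of 21 listed genes 5 entered that are no cytokines, and none of them was called, where 10.0% and 6.07% of all genes were. Rad50, which lies between Il13 and Il5, had a ratio of -1.72 with -2.49 to -0.83 on leaving out any 1 cell. Kif3a, next to Il4, had -1.06 but 3.58 without 60 min replicate 4, the only Il13-low cell with a read. Uqcrq, a subunit of respiratory complex III, had -0.09, Aff4 0.17 and Zcchc10 0.57. These 5 genes had a median of -0.09, against -0.20 over all genes.

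Of 20 immediate early genes, which respond first to receptor signals, 7 entered and all 7 had ratios above 0, with a median of 1.13, where 41.8% of all genes were above 0. Of these 7 genes 2 were called higher, against 10.0% of all genes, and 0 in the 60 and 90 min cells. Egr2, a zinc finger factor induced by receptor signals, had a read in 17 of 26 Il13-high cells and in 1 of 5 Il13-low cells, at 120 CPM. Its ratio was 2.65, 2.13 without 60 min replicate 5, and at least 4.88 without the 1 Il13-low cell that held reads, 90 min replicate 1. Junb, an AP-1 subunit, stood at 0, 0, 36.4, 123 and 222 CPM in Il13-low cells and had reads in all 26 Il13-high cells with a median of 221 CPM. The ratio of Junb was 1.57, 1.09 without 60 min replicate 11 and 3.20 without 60 min replicate 5. It was 1.25 without call in the 60 and 90 min cells. Egr2 did not enter there, at 2.01. The others were Myc at 1.20, Ier3 at 1.13, Ier5 at 1.11, Batf at 1.02 and Ier2 at 0.11.

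Of 14 entered regulators of NF-kB 1 was called higher (7.14%) and none lower, against 10.0% and 6.07% of all genes. It was Nfkbib, which encodes the inhibitor IkB-beta, at 1.42 (0.99 and 3.75 by title date, 1.35 without call in the 60 and 90 min cells), and the list median was 0.30 with all cells and -0.23 there. Of the 11 entered genes of JAK-STAT signalling none was called (10.0% and 6.07% of all genes), and their median was -0.34 against -0.20 over all genes. Stat4, which carries the IL-12 signal, had -1.55, also in the 60 and 90 min cells, and there it was called lower. Of 3 entered MAPK feedback genes none was called, too few to set beside those shares. Their median was -1.69 with all cells and -1.37 in the 60 and 90 min cells, and 1 of the 3 was above 0.

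Of 9 entered type 2 transcription factors, 2 were called higher and none lower (10.0% and 6.07% of all genes), the same 2 in the 60 and 90 min cells. Bhlhe40, a repressor needed for cytokine production in T cells, had a ratio of 1.97, and 1.93 in the 60 and 90 min cells. Its ratio was 1.49 without 60 min replicate 11 and 6.04 without 60 min replicate 5. It stood at 0, 0, 0, 4.55 and 210 CPM in the Il13-low cells and at a median of 121 CPM in the Il13-high cells. Satb1, a chromatin organiser, had 1 read in the Il13-low class and reads in 9 of 26 Il13-high cells. Its ratio against the 3-read floor was 5.29 (counting interval 4.40 to 12.18) and 5.68 in the 60 and 90 min cells, with 49.9% of its Il13-high reads in 1 cell. At an Il13 limit of 500 CPM it was 0.69. Gata3 itself had 1.06, with 0.82 to 1.34 on leaving out any 1 cell, and was not called. The Il13-low cells held 118, 202, 437, 517 and 1037 CPM of Gata3 and the Il13-high cells a median of 815 CPM. Rora was nearly level at -0.11.

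Il7r, the IL-7 receptor chain, was the only cytokine receptor gene of 6 entered that was called, and it was lower in Il13-high cells, where 6.07% of all genes were. The median of the 6 was -0.19, against -0.20 over all genes. It stood at 0, 0, 332, 536 and 658 CPM in the Il13-low cells, while 18 of 26 Il13-high cells had no read and the highest held 429 CPM. The ratio was -2.36, and -1.82 in the 60 and 90 min cells, where it remained called, but -0.86 at an Il13 limit of 500 CPM. Il1rl1 (-0.41), Il2ra (0.03) and Il2rg (0.15), through which the stimuli IL-33 and IL-2 act, were not called.

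Of 11 entered surface and costimulation genes 3 were called higher and none lower (10.0% and 6.07% of all genes). The median was 0.44 with all cells and -0.03 in the 60 and 90 min cells, where 2 were called. Icos, a costimulatory receptor, had 0, 2.95, 7.52, 8.78 and 81.9 CPM in Il13-low cells. At 60 min the 7 Il13-high cells held 173 to 2081 CPM, all above the 3 Il13-low cells of that time, whereas at 90 min 5 of 9 Il13-high cells had no read. The ratio was 3.90 with all cells and 4.34 in the 60 and 90 min cells. It was 3.41 without 60 min replicate 11, 6.39 without 90 min replicate 5, and 1.07 at an Il13 limit of 500 CPM. Klrg1, an inhibitory receptor of mature ILC2s, had 1.27 and 1.24, with reads in 24 and 5 cells, and 0.07 at an Il13 limit of 500 CPM. Thy1, a surface glycoprotein, had reads in 12 of 26 and 1 of 5 cells, a ratio of 5.26 (counting interval 3.99 to 8.90) that was 1.47 at the limit of 500 CPM, and did not enter in the 60 and 90 min cells.

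Of 36 secretory pathway genes that entered 6 were called higher (16.7%) and 1 lower (2.78%), against 10.0% and 6.07% of all genes. The median was 0.43, and in the 60 and 90 min cells 7 were called higher and 1 lower. Ssr4, a subunit of the translocon-associated complex, stood at 8.78, 12.4, 100, 173 and 400 CPM in Il13-low and at a median of 492 CPM in Il13-high cells. Its ratio was 2.01, and 2.07 in the 60 and 90 min cells, but 0.56 at an Il13 limit of 500 CPM, and 1.46 and 5.50 by title date. Copb1, of the COPI coat, had 2.24 and Tmed9, a cargo receptor, 2.09, each with a read in 1 of 5 Il13-low cells. Without that cell, 60 min replicate 11 for Copb1 and 90 min replicate 1 for Tmed9, the class was at 0 reads and the ratios were at least 4.56 and 5.49. Without 60 min replicate 5 they were 1.73 and 1.57. For the mean of the cells' own CPM they were 2.80 and 0.996. By title date Copb1 had at least 4.68 and 0.35, so 1 Il13-low cell sets its size. Spcs3, Tmed10 and Sec61g were the other 3. Sec31a, of the COPII coat, had -3.53, with 0, 0, 120, 186 and 316 CPM in the Il13-low cells and reads in 6 of 26 Il13-high cells.

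The cholesterol synthesis list had the second-highest median after the cytokines among lists with at least 3 entered genes. Its 8 entered genes had a median of 1.29, 7 of 8 were above 0 (41.8% of all genes), and 2 were called higher (10.0% of all genes). Insig1, a sterol-regulated protein of the endoplasmic reticulum, had no read in any Il13-low cell and reads in 14 of 26 Il13-high cells, so that its log2 ratio, with 3 reads over the class as the floor, was at least 5.66, and 5.15 without 60 min replicate 5, which lowers the class total. Fdft1, squalene synthase, had 2.66, 1.77 in the 60 and 90 min cells and 0.42 at an Il13 limit of 500 CPM. In the 60 and 90 min cells the list median was 1.02, below the 1.05 of the immediate early genes, so the rank did not hold there, and 2 genes were called.

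Of 12 survival and stress genes that entered 3 were called higher and 1 lower (10.0% and 6.07% of all genes), the same counts as in the 60 and 90 min cells. The median was 0.10 with all cells and -0.59 there. Bcl2, which opposes apoptosis, had 1 read in the Il13-low class and reads in 14 of 26 Il13-high cells. Its ratio was 6.61 (counting interval 5.72 to 13.50) and 6.91 in the 60 and 90 min cells, with 40.2% of the reads in 1 cell. Split at 500 CPM of Il13 the ratio of Bcl2 was -0.0555, so its direction depended on the limit. Gadd45g had 2.84, and 3.32 in the 60 and 90 min cells. It had 2.36 without 60 min replicate 11, 3.95 without 60 min replicate 5 and 0.65 at the limit of 500 CPM. By contrast, Gadd45a of the same stress-sensor family had -4.73 and came from 2 Il13-low cells at 334 and 313 CPM. Bcl2a1d had 1.60, with 1.08 without 60 min replicate 5 and 3.67 without 90 min replicate 1. For the mean of the cells' own CPM it had 0.64. Its reads may be split with near-identical paralogs of the Bcl2a1 family. No gene of the 10 entered in glycolysis and none of the 17 in ribosome biogenesis was called, with medians of 0.24 and -0.60, where 10.0% and 6.07% of all genes were called and their median was -0.20. In the 60 and 90 min cells 1 glycolysis gene was called lower, Pfkp of phosphofructokinase. Of 6 cell cycle genes 1 was called lower (6.07% of all genes), Mcm6 of the replicative helicase, at -2.54 (-1.39 without 90 min replicate 1, -6.42 without 90 min replicate 7), which had reads in 2 Il13-low cells and was not called in the 60 and 90 min cells, where the kinase gene Cdk6 was called lower (-1.80). Of 15 genes that the text of the study names as examples of its transition-state genes, a small part of its full lists, which were not used here, 9 entered. Of these 2 were called higher (Egr2 and Klrg1) and 1 lower (Il4), which is 22.2% and 11.1% against 10.0% and 6.07% of all genes. In the 60 and 90 min cells 1 was called higher and 0 lower, and the list median moved from 0.39 to -0.27. These examples come from cells of the IL-13 index in the same series, so the shares are not values of the full lists.

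The genes called higher that are named by size were ranked for a large ratio among those read in most Il13-high cells, so their low levels in Il13-low cells follow from the choice. Mkrn1, a ubiquitin ligase, and Med10, a Mediator subunit, had no read in any Il13-low cell and reads in 20 and 19 of 26 Il13-high cells. With 3 reads over the class as the floor their ratios were at least 6.29 and 5.80, and at least 5.67 and 6.14 in the 60 and 90 min cells. Nek7, a kinase known for its part in the NLRP3 inflammasome, had 1 read in the Il13-low class and 5.56 (4.66 to 12.45). Cflar, a caspase-8 inhibitor, had reads in 20 and 1 cells and 5.27, but did not enter in the 60 and 90 min cells, at 4.41. Of the 11 genes named in this direction beside Il13, the other 10 were also called there. Snw1, Cetn2 and Psmc3, a proteasome ATPase, had 5.28, 5.15 and 5.09. These ratios depended on the Il13 limit. At 500 CPM Mkrn1 turned to -1.02, Med10 stood at 1.38, Nek7 at 0.32, Cflar at 0.65, Snw1 at 2.79, Cetn2 at 0.95 and Psmc3 at 0.19.

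Crem and Tmem59 had a read in most cells of both classes, but few reads over the Il13-low class, 28 and 18. The part of shared library handling in these few reads was not tested. Crem, a cyclic AMP-responsive regulator, stood at 2.95, 7.52, 8.78, 45.5 and 46.4 CPM in the 5 Il13-low cells and at a median of 300 CPM in the Il13-high cells, 23 of which had a read. Its ratio was 4.35 (3.82 to 4.94), and 4.13 in the 60 and 90 min cells. Tmem59 had 0, 5.91, 6.19, 30.1 and 45.5 CPM against a median of 270 CPM, with a read in 25 of 26 cells and a ratio of 4.46. Lcp2, the adaptor SLP-76, had a read in only 1 Il13-low cell, 60 min replicate 4 at 158 CPM, and in 22 Il13-high cells. Its ratio was 3.87, with 3.36 without 60 min replicate 5 and at least 6.30 without 60 min replicate 4. At an Il13 limit of 500 CPM Crem had 1.90, Tmem59 0.57 and Lcp2 -0.38. The genes named here, except Il13, overlapped between the classes, since some Il13-high cells also had no read or a low level.

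The 12 genes named as lower by size had, by their rule, reads in at least 70% of the Il13-low cells, and they had reads in 5 to 13 of the 26 Il13-high cells. Ctcf, the insulator-binding factor, had reads in 5 of 5 Il13-low cells, at 141, 229, 396, 430 and 474 CPM. Of 26 Il13-high cells 10 had a read, the median was 0 and the highest 418 CPM. The ratio was -2.61, with -2.87 to -2.43 on leaving out any 1 cell, and -2.18 in the 60 and 90 min cells. Tmem123 was also read in 5 of 5 cells and in 13 of 26, with a ratio of -3.10.

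Fes, a tyrosine kinase, stood at 0, 8.78, 672, 707 and 709 CPM in the Il13-low cells. In the Il13-high cells it had a median of 0 and a highest value of 332 CPM, so 3 Il13-low cells lay above every Il13-high cell. Its ratio was -3.71. Dr1, a repressor of transcription, had -3.43, and Pum2, an RNA-binding repressor, -3.65. Taf1d, a subunit of the RNA polymerase I factor SL1, had -2.47 and Utp14a, of the small-subunit processome, -2.90. Mul1, a mitochondrial ubiquitin ligase, had -2.74. Ppfibp2 (-3.97), Ptcd2 (-2.96), Efr3a (-2.95) and AW209491 (-2.75) completed the 12. Each of the 12 was also called lower in the 60 and 90 min cells.

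**Figure D3:**
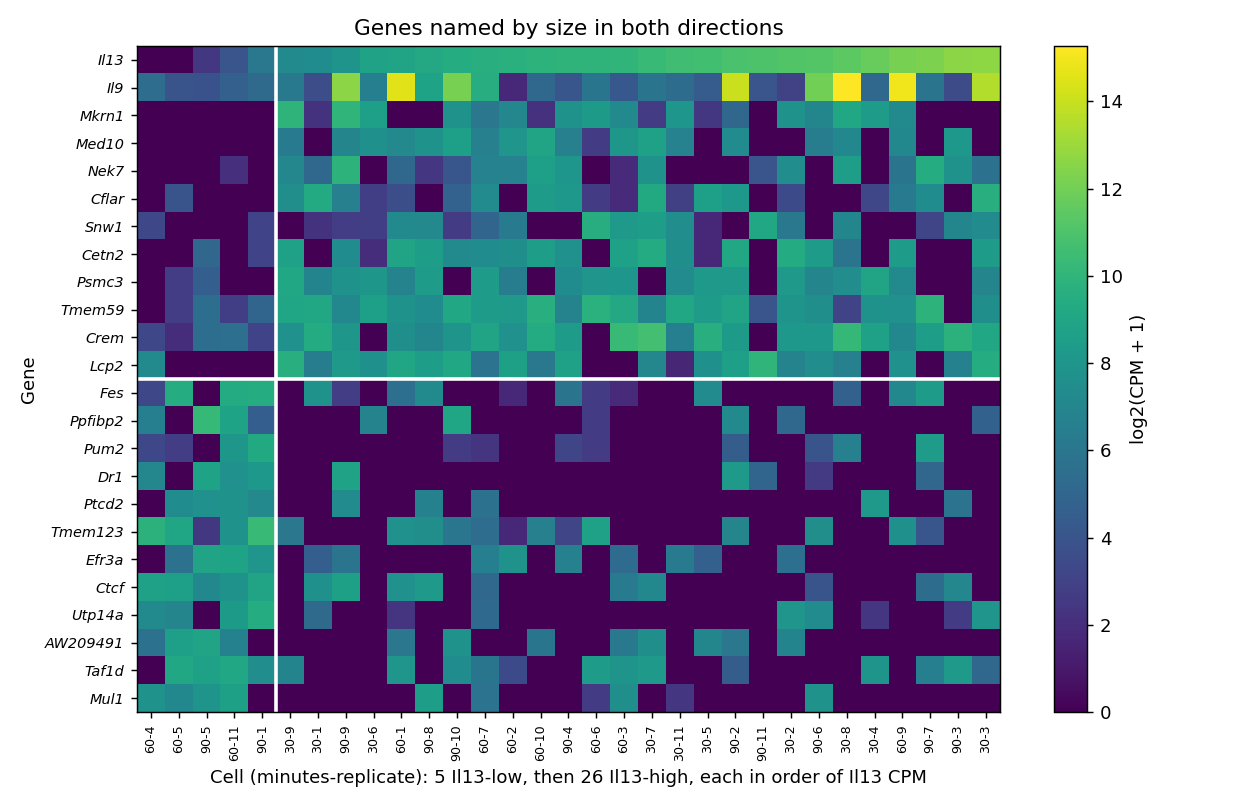
Log2(CPM + 1) of the 12 genes named in each direction (rows; higher above the white line, lower below it) in the 5 Il13-low cells and the 26 Il13-high cells (columns, ordered by Il13 within a class). The genes were chosen for this difference, and single Il13-high cells such as 90 min replicate 3 lack reads of several genes of the upper block.

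Of the 31 named genes called higher, Il13 among them, 23 had a RefSeq promoter window, and of these 3 held the AP-1 letters, 16 the NFAT core, 7 the GATA core and 1 the NF-kB consensus. Of the 17 named genes called lower, 16 had a window, and 0, 13, 5 and 2 held them. A gene was counted when any of its windows held the letters, and the letters were so found, in the same order, for 8.97%, 64.4%, 28.4% and 1.38% of the 27025 genes with a RefSeq window. The AP-1 letters were in the windows of Il9, Il6 and Bcl2a1d. Bhlhe40, Thy1, Icos, Klrg1, Fdft1, Snw1, Psmc3, Crem and Efr3a had no entry.

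**Figure D4:**
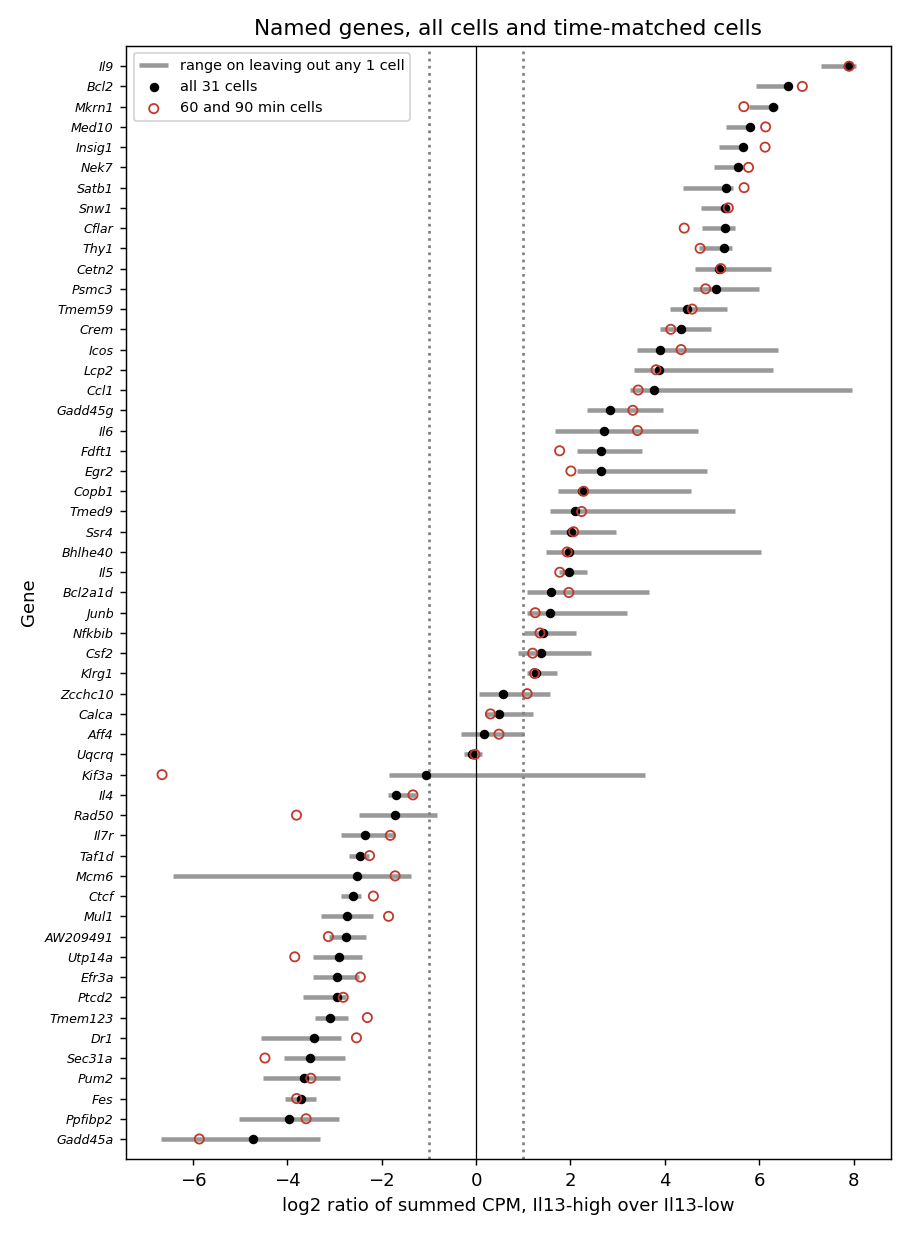
Log2 ratio of summed CPM, Il13-high over Il13-low, for each named gene other than Il13, with all 31 cells (black), within the 60 and 90 min cells (open red), and over all choices of 1 left-out cell (grey bars). Dotted lines mark ratios of 1 and -1. Without the 30 min cells Il4 moves from -1.70 to -1.34 and Il5 from 1.96 to 1.77.

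Within the Il13-low class the cells were unlike one another. The 60 min replicate 5 had no Il13 read, the most Il4 (517 CPM) and 1303 CPM of Il5. The 60 min replicate 4 had no Il13 read either, but the most Csf2 (13621 CPM), Calca (9470 CPM), Klrg1 (860 CPM) and Il7r (658 CPM) of the 5 cells. The 60 min replicate 11 had 393 CPM of Il4, 12.4 CPM of Csf2 and 461 CPM of Ccl1. The 90 min replicate 5 had 791 CPM of Il6 and 4443 CPM of Csf2. The 90 min replicate 1, nearest to the limit, had no Il4 read, the most Il5 (2864 CPM) and the most Gata3 (1037 CPM).

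The same limit was applied to 3 other groups of stimulated cells, and the activated and silent cells of the IL-13 index were not analysed here. Under 100 CPM of Il13 were 5 of 31 IL-5 transition cells (16.1%, exact binomial interval 5.45% to 33.7%), 2 of 33 transition cells of the IL-13 index (6.06%, 0.743% to 20.2%), 2 of 11 IL-5 activated cells (18.2%, 2.28% to 51.8%) and 5 of 10 IL-5 silent cells (50.0%, 18.7% to 81.3%; 1 further silent cell was left out for depth), activated and silent cells being those recovered later, with and without a secretion signal. The intervals cover the counting of cells alone, and the groups were not compared by a test because their cells are not replicates.

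Il4 did not take the same direction in those groups. Of the 2 IL-13 index transition cells under the limit none had an Il4 read, against 25 of 31 above it, and the log2 ratio, with 3 reads over the class as the floor, was at least 5.54. In the IL-5 activated cells it was 1.50 and in the IL-5 silent cells 1.38, whereas in the IL-5 transition cells it was -1.70. The Il4 medians above and under the limit were 162 and 67.2 CPM in the activated cells. In the silent cells they went against the ratio of sums, at 0 CPM above the limit (2 cells with a read) and 75.6 CPM under it (3 cells with a read). Il5 had ratios of -0.35, 3.51 and 3.38 in the 3 groups, and Csf2 of 1.19, 3.29 and 0.85. These groups hold 2, 2 and 5 cells under the limit.

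The direction of the called genes in those groups is given beside that of all measured genes. Of the genes called higher, 162 of 280 measured had a ratio above 0 in the IL-13 transition cells, 171 of 275 in the IL-5 activated and 140 of 278 in the IL-5 silent cells, which is 57.9%, 62.2% and 50.4%, where all measured genes stood above 0 in 55.0%, 56.2% and 49.7%. Of the genes called lower, 65 of 158, 66 of 139 and 69 of 142 were below 0, which is 41.1%, 47.5% and 48.6%, where all measured genes were so in 45.0%, 43.8% and 50.3%.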

How the data were processed

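Single cells were sequenced as 3′ libraries without molecular identifiers (SMART-Seq v4 3′ DE), 5 or 6 to a pool. The authors deposited raw read counts per gene and cell, 46078 gene identifiers beside 5 summary rows, which were left out of totals. The submitters' processing notes name TopHat2 and mm10; the counting tool's version, the annotation release and whether strand was used are not given in the sources used here, so overlapping and antisense genes cannot be told apart. Symbols were found for 45143 identifiers. Coordinates are from GENCODE for GRCm38, promoter windows from RefSeq (GRCm38.p6).

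Cells with at least 10000 gene reads were split at 100 CPM of Il13, and class sums were compared as the report states, with exact binomial and Poisson counting intervals (95%). No label gives a biological replicate, so no test was run. The members, limits and gene lists were chosen with earlier results of these data known. A gene taken out of the lists afterwards is not reported here. Named genes are all entered effector cytokine and locus genes, up to 3 called genes per direction from each of the other lists (27 lists in all), and up to 12 called genes per direction read in at least 70% of the cells of the higher class, each ranked by the smallest absolute ratio on leaving out any 1 cell. Genes with values named outside this rule were chosen as members of the lists or after their values were seen. Replicate numbers follow accession order and only name cells.

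Alternatives were TMM factors (edgeR 4.0.16), DESeq2 1.42.0 size factors, the mean of the cells' own CPM, Il13 limits of 50 and 500 CPM, 100000 gene reads per cell, entry at 10 or 200 CPM, means within dates or times, and each cell left out. The 60 and 90 min cells alone, the first title date alone and totals without the effector cytokines were chosen after the data were seen. The comparison was also run on simulated data, whose outcome is not given here and is not used as support for the calls. Python 3.11.15, numpy 2.4.6, scipy 1.17.1, pandas 2.3.3, matplotlib 3.10.9 and R 4.3.3 were used.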

Additional observations from a re-analysis of the deposited data

Results flagged for a closer look

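Of 24 sets of values checked for a cell far from the rest of its set, 8 were flagged, where chance flags about 1 in 20 sets of normally distributed values, which CPM values of single cells are not. In each, the highest cell stood apart from the next by more than Dixon's limit at 95% for a set of its size. At 30 min, replicate 3 held 6480 CPM of Il13 and the next cell 3421, replicate 4 held 47310 CPM of Csf2 and the next 10492, and replicate 8 held 39596 CPM of Il9 and the next 11854. At 60 min, replicate 7 had 785198 gene reads and the next cell 413547, and replicate 9 was highest in both Il13 (4448 CPM, next 1021) and Il6 (5857 CPM, next 962). Among the 5 Il13-low cells, 90 min replicate 1 held 67.7 CPM of Il13 and the next 15.5, and 90 min replicate 5 held 791 CPM of Il6 and the next 130. The Il13 values of the last class lie on 1 side of the limit by the choice of the cells.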

How the results depend on the processing

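No paired analysis was possible because the labels give the cells no replicate number. The count of genes called higher was 281 and stayed within 1.5 times of it under every scaling, depth, Il13 limit, time and date subset run, but was 547 and 461 for means of the log2 ratios within title dates and within times, 1409 with entry at 10 CPM and 32 with entry at 200 CPM. For genes called lower (170) these were 373, 450, 400 and 27, and 313 in the first title date alone, where 50.4% of the calls were higher against 62.3% with all cells. The entry limits change how many genes are compared, and the cause of the other changes was not tested. Leaving out each cell gave 266 to 311 genes higher and 169 to 248 lower, the last without 60 min replicate 11. Of the genes on the lists 29 were called, 69 with entry at 10 CPM and 11 at 200 CPM. At an Il13 limit of 500 CPM 194 and 131 genes were called, of which 86 and 36 were among the 281 and 170, so which genes are called depends on that limit. Of the 30 named genes called higher beside Il13, 14 had ratios under 1 there, and of the 17 called lower only Il7r (-0.86) was nearer to 0 than -1.

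For Il4 (-1.70) the ratio was -1.50 with TMM, -1.11 for the mean of the cells' own CPM, -1.90 and -1.04 at Il13 limits of 50 and 500 CPM, -1.34 in the 60 and 90 min cells, -1.31 in the first title date and -0.89 for the mean within times, and -1.88 to -1.28 on leaving out each cell. For Il5 (1.96) it was 2.16 with TMM, 2.12 with DESeq2 size factors, 1.86 for own CPM, 2.34 and 2.16 at the limits, 1.77, 1.80 and 2.19 (60 and 90 min, first date, within dates), 1.74 within times and 1.77 to 2.35 on leaving out each cell. For Csf2 (1.37) it was 1.57, 1.53, 0.85, 1.22, 1.51, 1.20, 1.07, 4.96 and 1.17 in the same order, and 0.89 (without 60 min replicate 11) to 2.43 (without 60 min replicate 4). The difference of median genes detected was 255, and 118 to 298 on leaving out each cell. Of 676 alternative values of 52 further named genes, 403 moved by less than the counting interval, 270 by more, and 3 values of called genes turned their sign, which were Bcl2 (-0.0555), Mkrn1 (-1.02) and Lcp2 (-0.38) at a limit of 500 CPM. Of the genes not called, Kif3a, Uqcrq and Aff4 also took the other sign under at least 1 alternative. With 5 Il13-low cells and 1128491 reads in their class, a gene at 0 reads there allows up to 2.66 CPM.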
